A study of Mus musculus with 16 samples.

Results

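Lungs of mice given 6-OHDA were compared with lungs of vehicle-treated mice, all of them marked as seeded with PDAC cells (pancreatic ductal adenocarcinoma). The cells were taken from the deposited cell table by 2 labels, a seeding mark (IV, which the table does not spell out) and a condition of 6OHDA or control. They numbered 23425 of 80449 cells in all (29.1%). The vehicle samples held 6814 cells (vehicle 1) and 9157 cells (vehicle 2), and the 6-OHDA samples held 3955 (6-OHDA 1) and 3499 (6-OHDA 2). Whole lungs were digested and live DAPI-sorted single cells were profiled by split-pool barcoding, in which each cell collects a series of well barcodes. Vehicle without PDAC cells (3 samples), 6-OHDA without PDAC cells (3 samples) and the BIBO3304 groups (a neuropeptide Y Y1 receptor antagonist) were used only for the spread, for values set beside the seeded lungs and, for BIBO3304 with PDAC cells, beside the cancer cells. The sources used here do not state strain, sex, age, dose, time after treatment or the PDAC line. Nothing there says that samples with different numbers came from separate animals, so p-values measure only the spread between these samples.

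Sympathetic nerves run along the vessels and airways of the lung and release norepinephrine together with cotransmitters such as neuropeptide Y. 6-OHDA is a toxic analogue of dopamine that enters these nerve endings through the norepinephrine transporter, encoded by Slc6a2, and destroys them. Macrophages, dendritic cells, fibroblasts and endothelium carry adrenergic receptors of several classes.

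Vehicle 2 held 0 cells annotated as cancer cells, which allows a share of up to 0.0328% of its 9157 cells. Whether vehicle 2 was seeded, or carries a wrong mark, cannot be told from these data. Here "with PDAC cells" and "seeded" refer to the mark, and adjusted p-values without vehicle 2 are given for most called genes named. Each sample gave 13694977 to 32580698 transcripts, with a median of 2411 to 3411 per cell. All 75 first-round wells of the whole experiment held cells of 1 sample each, and 0 complete cell barcodes occurred more than once, although 8740 of 70289 barcode combinations recurred in more than 1 of the 16 sublibraries. Alveolar macrophages made up 30.8% and 44.5% of cells in the vehicle samples and 14.3% and 13.6% in the 6-OHDA samples, while interstitial macrophages made up 3.86% and 3.18% against 13% and 9.75%. Neutrophils made up 0.91% and 1.34% against 3.19% and 3.03%. All 3 shares passed edgeR's test (adjusted p = 0.00189, 0.00189 and 0.00454). The alveolar macrophage call was lost without vehicle 2 (0.0694), the interstitial macrophage call without 6-OHDA 1 (0.0505) and the neutrophil call without vehicle 1 (0.0872). With alveolar macrophages left out of the cell numbers, the edgeR adjusted p was 0.0337 for interstitial macrophages and 0.0966 for neutrophils. In that setting adventitial fibroblasts and large-vessel endothelium also passed, both lower (log2 fold change -1.38 and -1.14, edgeR adjusted p = 0.0106 and 0.0387). A gene's level in a summed cell type is given as CPM (transcript counts relative to the summed counts of that type and sample, scaled by TMM), and fewer cells of a subtype cannot be told apart from less RNA per cell. RNA of alveolar macrophages was present in other types: their 15 marker genes summed to 302 and 864 CPM in alveolar fibroblasts of vehicle 1 and vehicle 2, and to 237 and 238 CPM in those of the 6-OHDA samples.

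Most calls lay in 2 immune types. Of 107528 gene and cell type pairs tested in 17 types, 445 (0.414%) passed an adjusted p of 0.05 in edgeR's quasi-likelihood test, 127 higher and 318 lower after 6-OHDA. Interstitial macrophages held 217 of the calls, dendritic cells 174 and alveolar fibroblasts 38. The 4 samples did not overlap between the groups for any called gene. These genes were picked by a small p on the same samples, which favours such separation, so it adds no support. Without vehicle 2 the test called 312 pairs, of which 211 were among the 445. Without 6-OHDA 2 it called 44. In 9 types edgeR called 0 genes: AT2, B, T and NK cells, neutrophils, monocytes, large-vessel endothelium, peribronchial fibroblasts and smooth muscle or pericytes. At an unadjusted edgeR p under 0.05 these held from 106 of 1988 genes tested (smooth muscle or pericytes) to 419 of 6924 (monocytes). Where nothing differs, that threshold is passed by a share of about 0.05. DESeq2 called 1 gene in monocytes and 1 in large-vessel endothelium among these types, and 0 in the other 7 types.

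**Figure D1:**
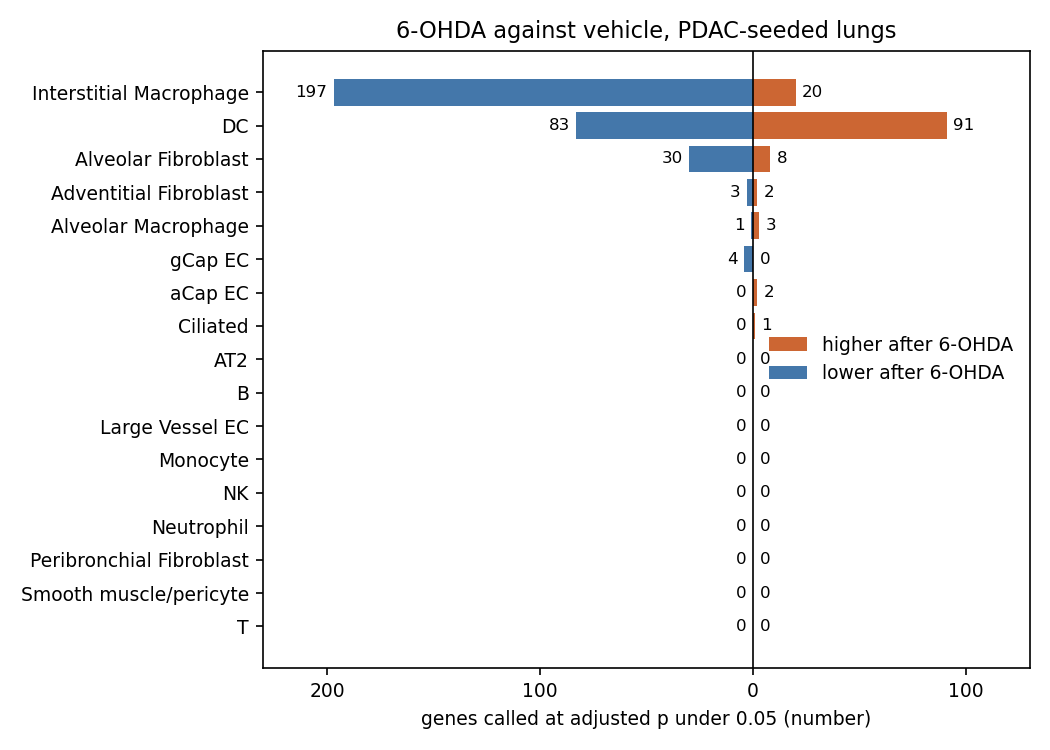
Number of genes called at an adjusted p under 0.05 in each of the 17 cell types, lower after 6-OHDA to the left of 0 and higher to the right. Interstitial macrophages have 197 lower and 20 higher genes, dendritic cells 83 lower and 91 higher, and alveolar fibroblasts 30 lower and 8 higher.

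Interstitial macrophages are tissue macrophages of the bronchovascular space and alveolar walls, marked by Mrc1, C1q genes and, in a resident perivascular subset, Lyve1, F13a1, Cd163 and Folr2. After 6-OHDA 197 of 6443 genes fell (3.06%) and 20 rose (0.31%). Resident macrophage genes and the mannose receptor gene were among those that fell, and Arg1 was among those that rose. These calls varied with single samples: 457 genes were called without vehicle 1, 89 without vehicle 2 (85 of them among the 217), 73 without 6-OHDA 1 and 38 without 6-OHDA 2. In 31 genes the call held whichever sample was left out, among them Arg1, Mrc1, Mgl2, F13a1, Cd209c, Mt2, Slco2b1, Blnk, Nav2, Zeb1 and Casp4.

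Arg1, arginase 1 of the urea cycle and of alternatively activated macrophages, was at 0 and 1.46 CPM in the vehicle samples and at 44.8 and 48.4 CPM in the 6-OHDA samples. The 1 transcript of the vehicle samples together stood against 160 of the 6-OHDA samples, a ratio of 93.2 at equal depth with a counting interval of 16.5 to 3704. The adjusted p was 0.000259, and 0.000598 without vehicle 2. In lungs without PDAC cells Arg1 was at 0 CPM in all 3 vehicle samples and at 14.2, 44.4 and 27.1 CPM in the 6-OHDA samples (adjusted p = 0.0206). In 1000 transcripts drawn from each cell, Arg1 was seen in 0% and 0.383% of interstitial macrophages of the vehicle samples and in 1.90% and 2.26% of the 6-OHDA samples. Unthinned, the shares were 0%, 0.344%, 6.23% and 4.99%, at median depths of 2879 to 3108 transcripts. Arg1 was higher in all 3 types in which it was tested (log2 fold change 5.91 to 6.80) and called in 1. In the same sample order, unthinned shares were 0%, 0%, 1.43% and 1.25% in alveolar fibroblasts and 0%, 0%, 2.87% and 1.64% in monocytes. Alveolar macrophages gave 0.191%, 0.0736%, 1.06% and 0.21%. Whether Arg1 RNA of 1 type enters the values of another was not tested.

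Mrc1 encodes the mannose receptor CD206. It was at 1186 and 2047 CPM in the vehicle samples and at 419 and 313 CPM in the 6-OHDA samples, with no overlap. It fell by 2.14 ± 0.32 on the log2 scale (SE, 2 samples against 2; adjusted p = 0.000363), and by 1.69 without vehicle 2 (adjusted p = 0.00598). Cells with at least 1 Mrc1 transcript at 1000 transcripts each made up 45.4% and 62.1% of interstitial macrophages in the vehicle samples and 16.9% and 20.3% in the 6-OHDA samples. The same shares unthinned were 58.6%, 79.4%, 33.3% and 35.5%. B cells, which should lack Mrc1, gave 6.19%, 16.7%, 9.41% and 6.56% in the same order at 1000 transcripts, at median depths of 1793 to 2060. Relative to all cells of the sample, Mrc1-positive interstitial macrophages made up 1.60%, 1.77%, 2.02% and 1.80% at 1000 transcripts. Unthinned they made up 2.26%, 2.52%, 4.32% and 3.46%. The fall was not confined to this type: Mrc1 was higher in 1 of 17 types tested, with a median log2 fold change of -1.22. It was called lower in 1 type. Of alveolar macrophages, 94.9%, 93.5%, 94.2% and 96.4% held Mrc1 unthinned in the same sample order. Whether their RNA enters the values of other types was not tested.

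Among 13 tested of 14 interstitial macrophage markers, 6 fell and 0 rose, with a median log2 fold change of -1.30 against 0.02 over all genes tested, and -0.69 without vehicle 2. F13a1, the coagulation factor XIII A chain, was at 392 and 828 CPM against 156 and 121 CPM and fell by 2.13 (adjusted p = 0.000548, and 0.0133 without vehicle 2). Cd163, the haemoglobin scavenger receptor, was at 133 and 311 CPM against 44.3 and 17 CPM and fell by 2.81 (adjusted p = 0.0161), but missed the threshold without vehicle 2 (0.189). Pf4, Cbr2, Timd4 and Cx3cr1 fell as well with adjusted p of 0.0114 to 0.0358, and these 4 also missed it without vehicle 2. C1qa, the first C1q chain, stood at 149, 355, 179 and 170 CPM and did not pass (adjusted p = 0.45). Over cell types, F13a1 was higher in 0 of 12 tested (median log2 fold change -0.62) and C1qa in 6 of 7 (0.88).

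Type 2 conventional dendritic cell markers measured in these macrophages fell in 4 of 7 tested genes, with a median of -1.71. The 4 were Mgl2, Cd209a, Kmo and Clec10a. Cd209c, given below, is not on this list. The C-type lectin Mgl2 was at 409 and 292 CPM against 83.6 and 93.3 CPM, and fell by 1.99 ± 0.31 (adjusted p = 0.000495, and 0.000598 without vehicle 2). Cd209c, a lectin of the DC-SIGN family, was at 61.0 and 38.0 CPM against 5.54 and 4.77 CPM (adjusted p = 0.000183, and 0.000151 without vehicle 2). Cd209a and Kmo fell too (adjusted p = 0.0137 and 0.0114), and neither held without vehicle 2.

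Of 13 tested genes tied to alternative activation, 4 fell (Mrc1, Mgl2, Retnla and Clec10a, the last with an adjusted p of 0.771 without vehicle 2) and 1, Arg1, rose. Retnla, the secreted protein RELM-alpha, was at 139 and 592 CPM against 21.2 and 27.2 CPM, and fell by 3.90 ± 0.69 (adjusted p = 0.0085, and 0.00795 without vehicle 2); without 6-OHDA 1 or 6-OHDA 2 it missed the threshold (0.129 and 0.123). The metal-binding Mt2 fell by 2.38 ± 0.35, from 71.9 and 148 CPM to 19.6 and 21.8 CPM (adjusted p = 0.000317, and 0.00841 without vehicle 2), and its neighbour Mt1 fell by 1.47 (adjusted p = 0.014), but not without vehicle 2 (0.458). The organic anion transporter Slco2b1 was at 32.5 and 40.9 CPM against 4.53 and 2.04 CPM (adjusted p = 0.000834, and 0.00658 without vehicle 2). Ehf and Samd4 were the other 2 large falls, with log2 changes of -3.25 and -3.48; Ehf had an adjusted p of 0.021 without vehicle 2, while for Samd4 the vehicle samples differed from each other, 13.8 against 76.0 CPM, and its adjusted p without vehicle 2 was 0.263.

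Of 21 tested NF-kB target genes, 2 fell (Birc3 and Tnfaip3, by 1.04 and 0.89; adjusted p = 0.179 and 0.212 without vehicle 2) and the list median was -0.76. Ccl2, the main monocyte attractant, was at 68.9 and 95.1 CPM against 35.8 and 34.1 CPM, and fell by 1.21 (adjusted p = 0.00974, and 0.179 without vehicle 2). Ccl7 fell by 1.48 (adjusted p = 0.0105, and 0.109 without vehicle 2). Apoe and Cd36 fell by 1.28 and 1.14 with calls lost without vehicle 2 (0.618 and 0.235). Fosb and Egr3, early response transcription factors, fell by 0.97 and 1.49, and the neurotrophic receptor subunit Gfra2 fell by 2.16 (adjusted p = 0.0284). All 3 missed the threshold without vehicle 2 (0.0995, 0.18 and 0.21).

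Other genes rose. Spon1, an extracellular matrix protein, was at 3.94 and 8.77 CPM against 35.3 and 57.2 CPM, a rise of 2.90 ± 0.49 (adjusted p = 0.000938, and 0.00355 without vehicle 2). Complement factor Cfb was at 9.84 and 7.31 CPM against 43.3 and 53.8 CPM (log2 fold change 2.44, adjusted p = 0.00338, and 0.0419 without vehicle 2). Gbp2, an interferon-induced GTPase, was at 14.8 and 17.5 CPM against 53.9 and 63.3 CPM (log2 fold change 1.86, adjusted p = 0.0187, and 0.0886 without vehicle 2), and Gbp8 rose as well (adjusted p = 0.0254, and 0.259 without vehicle 2). The interferon gamma list had 2 of 10 tested genes higher and a median of 1.25. Irf8, Aif1, Clec7a, Plac8 and Mmp14 rose with adjusted p of 0.00973 to 0.0435, and each had an adjusted p of 0.114 to 0.408 without vehicle 2.

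**Figure D2:**
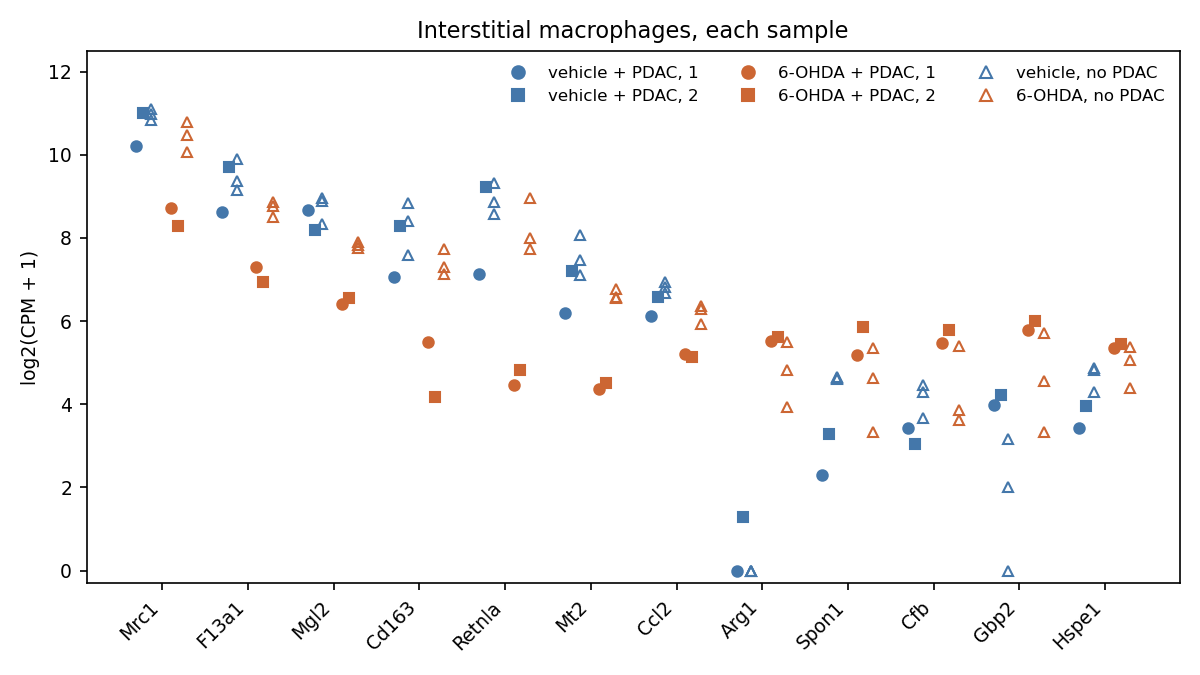
Levels of 12 genes in interstitial macrophages on a log2(CPM + 1) scale, each symbol 1 sample, filled for lungs with PDAC cells and open for lungs without. Blue and orange symbols stand for vehicle and 6-OHDA. The 7 genes at left are lower in both 6-OHDA samples with PDAC cells and the 5 at right are higher.

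Alveolar macrophage markers in the interstitial macrophages were highest in vehicle 2. Of 15 alveolar macrophage markers, 11 passed the count filter in interstitial macrophages and summed to 1371 and 3461 CPM in the vehicle samples and 672 and 522 CPM in the 6-OHDA samples. Their median log2 fold change was -2.14 with all samples and 0.15 without vehicle 2, with 2 members called lower, Mrc1 and Ear1. Mrc1 is 1 of the 15 and made up 1186, 2047, 419 and 313 CPM of these sums. Fabp4 stood at 4.92, 71.7, 5.54 and 9.53 CPM and Marco at 26.6, 173, 28.7 and 8.85 CPM, high in vehicle 2 only. Of the 197 genes that fell, 37 (18.8%) were higher in alveolar than in interstitial macrophages of the vehicle samples. Among all 6443 genes tested the share was 53.1%. The 197 were called partly for high values in the same vehicle samples, which lowers their share in advance. These shares therefore say nothing about alveolar macrophage RNA in the falls. The part of alveolar macrophage RNA in single falls was not tested.

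In the class annotated as dendritic cells, 91 of 5730 genes rose (1.59%) and 83 fell (1.45%). Plasmacytoid dendritic cell markers and chaperones were among the genes that rose, and H2-Ob, Epcam and Kit among those that fell. The class summed 188, 277, 72 and 91 cells in the order vehicle 1, vehicle 2, 6-OHDA 1 and 6-OHDA 2. The calls numbered 61 without vehicle 1, 202 without vehicle 2 (115 of them among the 174), 168 without 6-OHDA 1 and 1 without 6-OHDA 2, which was Prkca.

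Plasmacytoid dendritic cells are the main producers of type I interferon. Of 7 tested markers of them, 5 rose and 0 fell, with a median of 1.59 that was 1.58 without vehicle 2. Siglech, a surface lectin of this cell type, was at 228 and 250 CPM against 578 and 853 CPM, and rose by 1.59 ± 0.25 (adjusted p = 0.00194, and 0.00795 without vehicle 2, and 0.109 without 6-OHDA 2). Their lineage factor Tcf4 was at 1227 and 1169 CPM against 2427 and 3656 CPM (adjusted p = 0.00522, and 0.289 without 6-OHDA 2). The chemokine receptor Ccr9 was at 25.3 and 46.1 CPM against 101 and 158 CPM. Pacsin1 and Ly6d rose by 2.07 and 3.14. Without vehicle 2 the adjusted p was 0.0369 for Tcf4, 0.0085 for Ccr9, 0.0143 for Pacsin1 and 0.0547 for Ly6d, which thus missed the threshold.

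Siglech-positive cells at 1000 transcripts each made up 14.1% and 11.7% of dendritic cells in the vehicle samples (23 of 163 and 28 of 239 cells), and 34.4% and 47.6% in the 6-OHDA samples (21 of 61 and 39 of 82 cells). Unthinned they made up 18.6%, 20.6%, 34.7% and 60.4%. Relative to all cells of the sample they made up 0.338% and 0.306% in the vehicle samples and 0.531% and 1.11% in the 6-OHDA samples at 1000 transcripts, and 0.514%, 0.622%, 0.632% and 1.57% unthinned. T cells, which should lack Siglech, gave 0.467% and 0.42% in the vehicle samples and 0% in the 6-OHDA samples, with limits of 3.30% and 2.34% for a count of 0, at median depths of 1580 to 2195. The exact binomial 95% intervals of the dendritic cells were 9.16% to 20.4%, 7.93% to 16.5%, 22.7% to 47.7% and 36.4% to 58.9% (counting error only).

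Prkca, the protein kinase C alpha, stood at 458 and 436 CPM against 1596 and 1762 CPM, and rose by 1.91 ± 0.27 (adjusted p = 0.000931, 0.00563 without vehicle 2, 0.0463 without 6-OHDA 2). The stress chaperone Hspa1a stood at 6.02, 0, 86.1 and 52.5 CPM, a rise of 4.18 ± 1.0 (adjusted p = 0.0286, and 0.102 without vehicle 2). Hsp90aa1 and Hspa8 rose by 1.54 and 1.42 (adjusted p = 0.0253 and 0.0325 without vehicle 2). Fn1 was at 15.7, 51.0, 117 and 263 CPM, and Gpr174, Cdc123 and Plac8 rose with adjusted p of 0.034 to 0.048. Without vehicle 2, Fn1 and Plac8 were called (0.0143 each), and Gpr174 and Cdc123 were not (0.0703 and 0.172).

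Other genes fell in dendritic cells. H2-Ob, the beta chain of the class II regulator H2-O, was at 89.1 and 64.2 CPM against 5.07 and 18.5 CPM, and fell by 2.52 ± 0.49 (adjusted p = 0.00505, and 0.00453 without vehicle 2). It was the 1 called gene of 11 tested MHC class II genes, whose median was -0.84. Plce1, Cd101 and Epcam fell by 3.17, 2.68 and 2.55, all called without vehicle 2. These falls rest on few transcripts. Plce1 had 95 and 61 in the vehicle samples against 4 and 2 in the 6-OHDA samples. Cd101 had 49 and 26 against 2 and 2, and Epcam 42 and 26 against 2 and 2. Cd9 and Kit fell by 1.53 and 1.89, and the nuclear receptors Nr4a1 and Nr4a2 by 1.17 and 2.05. Of these 4, Nr4a1 missed the threshold without vehicle 2 (adjusted p = 0.0969) and the other three were called there. Xcr1, the defining chemokine receptor of type 1 conventional dendritic cells, was at 67.5 and 57.6 CPM against 15.2 and 30.9 CPM without a call (adjusted p = 0.166), and Clec9a showed no call (adjusted p = 0.675). The mixture of dendritic cell subsets in this class may differ between samples, and its part in these results was not tested.

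Interstitial macrophages and dendritic cells shared 20 falling genes, 10.2% of the 197 and 24.1% of the 83, and 1 rising gene, Plac8. The shared ones included Nav2, Mctp1, Timd4, Il1rap, Arsb, Rnf150, Hdac9, Cdk14, Chsy3 and Mir6236. Nav2 was at 189 and 235 CPM against 31.2 and 23.2 CPM in interstitial macrophages, and at 701 and 441 CPM against 142 and 164 CPM in dendritic cells. Mctp1 was at 395 and 604 against 127 and 124 CPM in the macrophages and at 968 and 738 against 340 and 325 CPM in dendritic cells.

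In alveolar fibroblasts, the matrix cells that line alveoli and keep AT2 cells, 30 of 12626 genes fell (0.238%) and 8 rose (0.0634%). The count fell to 6 without vehicle 2, all 6 among the 38, to 4 without 6-OHDA 1 and to 0 without 6-OHDA 2. Colq, the collagen tail of acetylcholinesterase, stood at 53.5 and 63.3 CPM against 21.4 and 15.7 CPM, and fell by 1.66 ± 0.22 (adjusted p = 0.0019, and 0.0203 without vehicle 2, and 0.15 without 6-OHDA 2). Igfbp5 and Igfbp3, binding proteins of insulin-like growth factors, fell by 1.59 and 1.0; Igfbp5 was at 183, 187, 77.0 and 46.8 CPM. Both missed the threshold without vehicle 2 (adjusted p = 0.0711 and 0.33). Spon2 was at 64.7 and 52.9 CPM against 18.5 and 18.1 CPM and fell by 1.69 (adjusted p = 0.00974, and 0.0203 without vehicle 2). Gli1 and its target Ptch1 fell by 1.20 and 1.16 (adjusted p = 0.0258 and 0.0238, and 0.173 and 0.176 without vehicle 2). Hmgcs1, of cholesterol synthesis, was at 83.4 and 54.5 CPM against 35.3 and 28.7 CPM and fell by 1.13 (adjusted p = 0.0352, and 0.0437 without vehicle 2).

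Of the genes that rose in alveolar fibroblasts, Cfb was at 41.5 and 19.2 CPM against 80.2 and 70.9 CPM, a rise of 1.26 (adjusted p = 0.0275, and 0.192 without vehicle 2). Iigp1, an interferon-induced GTPase, and Tspan4 rose by 1.25 and 1.21, and both missed the threshold without vehicle 2 (0.208 and 0.0664). The PAR bZIP clock output gene Tef rose by 1.37, from 17.2 and 20.4 CPM to 57.4 and 39.5 CPM (adjusted p = 0.0258, and 0.0754 without vehicle 2).

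The remaining types held few calls. In adventitial fibroblasts 5 of 8590 genes were called (0.0582%), in alveolar macrophages 4 of 12818 (0.0312%), in general capillary endothelium (gCap) 4 of 8148 (0.0491%) and in aerocytes (aCap) 2 of 4565 (0.0438%). Adam12, a metalloprotease, was at 37.8 and 41.1 CPM against 283 and 187 CPM in aerocytes, and rose by 2.57 ± 0.38 (adjusted p = 0.000172, and 0.00412 without vehicle 2). It was also called without each of the other samples. Fmo2, a flavin monooxygenase abundant in lung, was at 130 and 151 CPM against 41.1 and 64.4 CPM in gCap cells and fell by 1.40 (adjusted p = 0.004, and 0.0919 without vehicle 2). Sdk1 rose by 1.41 in alveolar macrophages, from 12.6 and 10.7 CPM to 32.3 and 29.5 CPM (adjusted p = 0.0187, and 0.104 without vehicle 2). The ciliated cells held 1 call, Csrp1, at 167 and 186 against 587 and 501 CPM (adjusted p = 0.015, and 0.0823 without vehicle 2).

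Clock genes differed between the groups in several types. The core clock drives time-of-day cycles: Arntl and its partner Npas2 (in place of Clock) activate the Per, Nr1d and PAR bZIP genes through E-box sites, and Per proteins feed back on them. In adventitial fibroblasts Arntl was at 104 and 56.8 CPM against 13.4 and 14.1 CPM, and fell by 2.55 ± 0.44 (adjusted p = 0.0201, 0.000766 without vehicle 2, and 0.126 to 0.304 without any 1 of the other samples). Per2 was at 6.67 and 7.80 CPM against 32.8 and 30.5 CPM, and rose by 2.13 ± 0.39 (adjusted p = 0.0281, and 0.098 to 0.304 with any 1 sample left out). Hlf, at 11.3 and 20.6 against 37.3 and 84.4 CPM, rose by 1.89 (adjusted p = 0.038). Its adjusted p was 0.301 without vehicle 1, 0.0202 without vehicle 2, 0.00504 without 6-OHDA 1 and 0.934 without 6-OHDA 2. Npas2, at 257 and 114 against 53.6 and 23.5 CPM, had no call (adjusted p = 0.608). Per2 was higher in 8 of 8 types in which it was tested, Tef in 9 of 9, and Arntl was lower in 10 of 15 and Npas2 in 7 of 8. The repressor and output list had a positive median in 14 of 16 types, with 5 calls in 106 tests, beside the 0.414% called over all pairs. The 5 calls were Per2 in 2 types and Tef, Hlf and Tspan4 in 1 type each. This list, Tspan4 included, was chosen with earlier results of these data known, so its share of calls adds no support. Without PDAC cells the median log2 fold change of Per2 over types was 0.32 and that of Tef -0.11. The hour at which each sample was collected is not given in the sources used here, and differences in that hour cannot be told apart from the treatment.

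**Figure D3:**
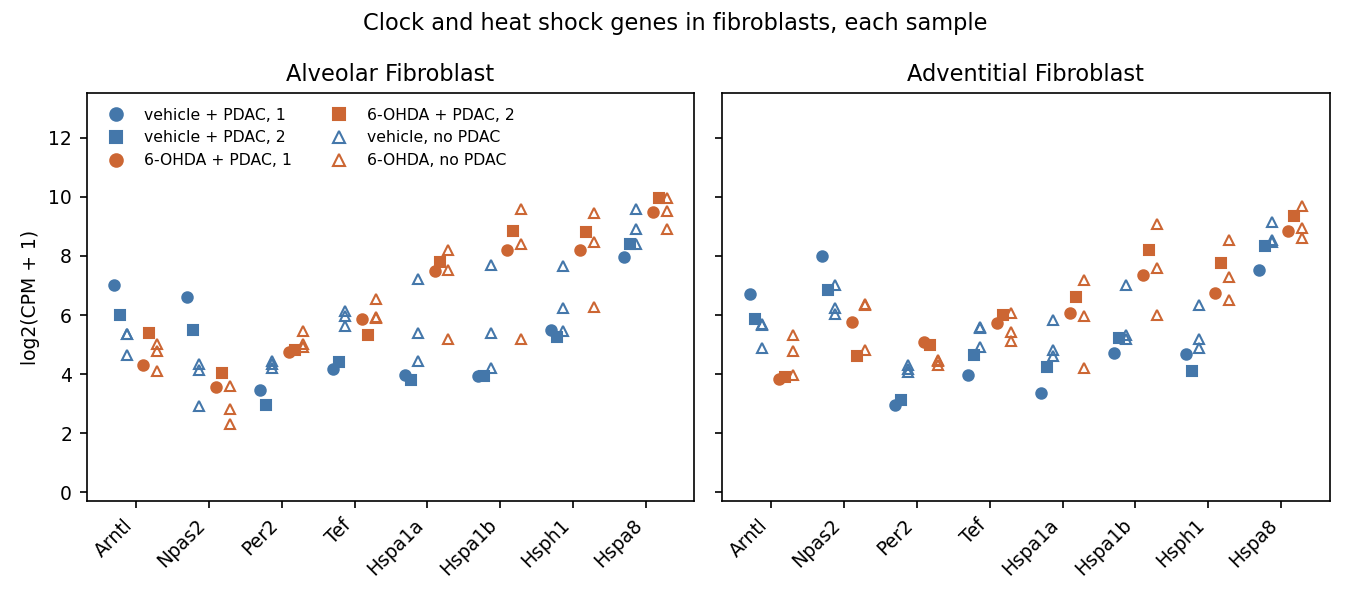
Levels of clock genes and heat shock genes in alveolar fibroblasts (left) and adventitial fibroblasts (right) on a log2(CPM + 1) scale, each symbol 1 sample, filled with PDAC cells and open without. Arntl and Npas2 are lower, and Per2 and the heat shock genes higher, in both 6-OHDA samples with PDAC cells than in both vehicle samples.

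Heat shock chaperones fold and protect proteins and are switched on by HSF1 through heat shock elements. Their list had a positive median in 17 of 17 types (0.42 to 1.45), and in 17 of 17 without vehicle 2 and in 17 of 17 in lungs without PDAC cells. The list gave 4 calls in 195 tests, beside the 0.414% called over all pairs. It too was chosen with earlier results of these data known, so this share adds no support. Hspa1a was higher in 12 of 12 types, Hspa1b in 15 of 15, Hsph1 in 17 of 17 and Hspa8 in 17 of 17. In alveolar fibroblasts Hspa1a was at 14.6 and 12.9 CPM against 179.9 and 223 CPM, and Hspa1b at 14.4 and 14.2 CPM against 294 and 463 CPM, with no call (adjusted p = 0.269 and 0.323). In lungs without PDAC cells, Hspa1b in the same cells stood at 41.3, 17.7 and 206 CPM in the vehicle samples and at 339, 35.2 and 775 CPM in the 6-OHDA samples. In interstitial macrophages Hspe1, a mitochondrial chaperonin subunit, was at 9.84 and 14.6 CPM against 39.8 and 42.9 CPM and rose by 1.78 ± 0.39 (adjusted p = 0.00891, and 0.0298 without vehicle 2). Hspa1a and Hspa1b are near-identical copies, and reads may be split between them, which was not tested. Their promoters shared 296 of 300 bases (98.7%), and their transcripts were not compared.

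The promoters of 2 heat shock genes and of the clock output gene Tef are shown because these members rose in the types named above, with 250 bases before the start and 50 after it (RefSeq, GRCm38.p6, first listed start, plus or minus strand as given). Capitals mark GAANNTTC or TTCNNGAA, which is the core of a heat shock element, or, in Tef, the E-box CACGTG; both strands were searched and overlapping matches were kept. Hspa1a lies at chr17:34972107-34972406 on the minus strand, Hspe1 at chr1:55087898-55088197 on the plus strand and Tef at chr15:81802423-81802722 on the plus strand.
Hspa1a: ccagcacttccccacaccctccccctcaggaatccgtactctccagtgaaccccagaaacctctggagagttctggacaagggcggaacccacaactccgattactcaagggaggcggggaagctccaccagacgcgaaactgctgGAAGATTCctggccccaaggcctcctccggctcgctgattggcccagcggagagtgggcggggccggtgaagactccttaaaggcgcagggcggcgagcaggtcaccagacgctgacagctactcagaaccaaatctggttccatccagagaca
Hspe1: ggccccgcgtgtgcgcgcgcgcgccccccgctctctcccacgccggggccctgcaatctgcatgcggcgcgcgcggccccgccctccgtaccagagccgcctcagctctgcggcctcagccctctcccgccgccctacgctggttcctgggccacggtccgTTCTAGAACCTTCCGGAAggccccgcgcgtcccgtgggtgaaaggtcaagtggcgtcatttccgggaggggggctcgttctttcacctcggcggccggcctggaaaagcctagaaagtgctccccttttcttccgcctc
Tef: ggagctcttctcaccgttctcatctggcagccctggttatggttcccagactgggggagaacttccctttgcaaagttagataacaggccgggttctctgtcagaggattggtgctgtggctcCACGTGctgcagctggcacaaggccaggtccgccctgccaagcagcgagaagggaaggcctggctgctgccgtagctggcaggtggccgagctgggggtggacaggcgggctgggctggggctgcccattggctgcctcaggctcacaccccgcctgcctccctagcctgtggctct
The heat shock core occurred in 4073 of 27025 mouse promoters (15.1%) and in 8 of the 10 heat shock list members that had a promoter in the table, of 14 in the list. The 8 were Bag3, Chordc1, Dnaja1, Hspa1a, Hspa1b, Hspb1, Hspe1 and Hsph1. The E-box occurred in 1957 promoters (7.24%) and in 4 of 12 clock repressor and output members with a promoter, of 14 (Bhlhe41, Ciart, Per1 and Tef), and the D-box TTATGTAA or TTATGCAA in 470 (1.74%) and in Per1 and Per3. A match is a description of letters in this window.

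**Figure D4:**
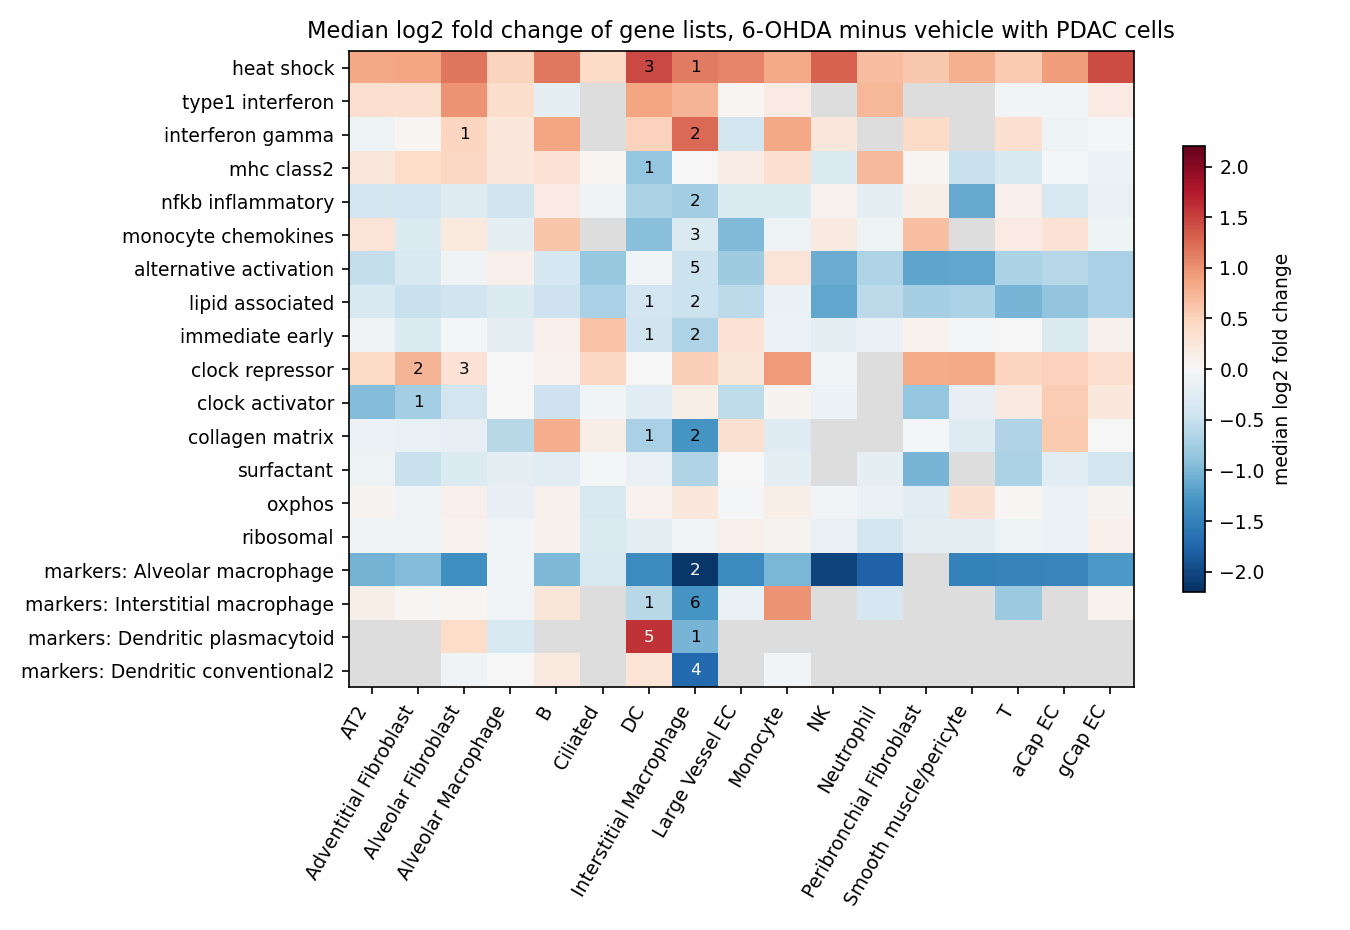
Median log2 fold change (colour) of 19 gene lists in each cell type with 3 or more tested members, 6-OHDA minus vehicle with PDAC cells, with the number of called members printed in the cell. Heat shock medians are above 0 in each type, and alveolar macrophage marker medians below 0 in each type shown. Without vehicle 2 the alveolar macrophage marker median is above 0 in 6 of 16 types, and the median over types is -0.28 in place of -1.38.

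Genes of nerve signalling were tested in each type. In types with 3 or more tested members, the neuropeptide Y and catecholamine list gave 1 call in 28 tests and adrenergic receptors gave 0 in 8. Over all pairs 0.414% were called. The call was Slc6a2 in adventitial fibroblasts, at 27.1 and 29 CPM in the vehicle samples (117 transcripts) and 0 in both 6-OHDA samples, at least 8.93-fold lower (a floor of 3 transcripts over the group; adjusted p = 0.002, and 0.00381 without vehicle 2, and 0.0783 and 0.0683 without 6-OHDA 1 and 6-OHDA 2). DESeq2 did not make this call (adjusted p = 0.0563). In large-vessel endothelium, where Slc6a2 is a marker, it was at 744 and 734 against 479 and 551 CPM (log2 fold change -0.53, edgeR adjusted p = 0.872). In lungs without PDAC cells the same type had 549, 612 and 635 CPM in the vehicle samples and 156, 118 and 99.0 CPM in the 6-OHDA samples (log2 fold change -2.26, adjusted p = 1.02e-07). The effects with and without PDAC cells differed by 1.73 on the log2 scale, with an adjusted p of 0.063. Adra1a, the alpha-1A adrenergic receptor, was at 482 and 455 against 259 and 312 CPM in alveolar fibroblasts (adjusted p = 0.193) and at 179 and 116 against 28.2 and 27.2 CPM in peribronchial fibroblasts (adjusted p = 0.148).

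The lungs without PDAC cells gave a comparison of 6-OHDA with vehicle that shares no sample with the seeded lungs. There 78 of 107528 pairs were called (0.0725%). Of the 445 pairs called with PDAC cells 389 had the same sign without them and 31 were called in both. By type, the sign was shared in 180 of 217 pairs in interstitial macrophages (60.4% of all genes tested there had the same sign in both settings), in 167 of 174 in dendritic cells (65.2%) and in 29 of 38 in alveolar fibroblasts (56.6%), with 4, 26 and 1 called in both. The genes that rose in interstitial macrophages had a median log2 fold change of 1.51 with PDAC cells and 0.36 without, and those that fell -1.78 and -0.39. In dendritic cells the medians were 1.59 and 0.97 for rising genes, and -1.65 and -0.45 for falling ones. In alveolar fibroblasts they were 1.39 and 0.23, and -1.18 and -0.12. The difference between the 2 effects was itself called in 9 pairs (0.00837%), 5 of them in interstitial macrophages, and in 0 pairs without 6-OHDA 2.

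**Figure D5:**
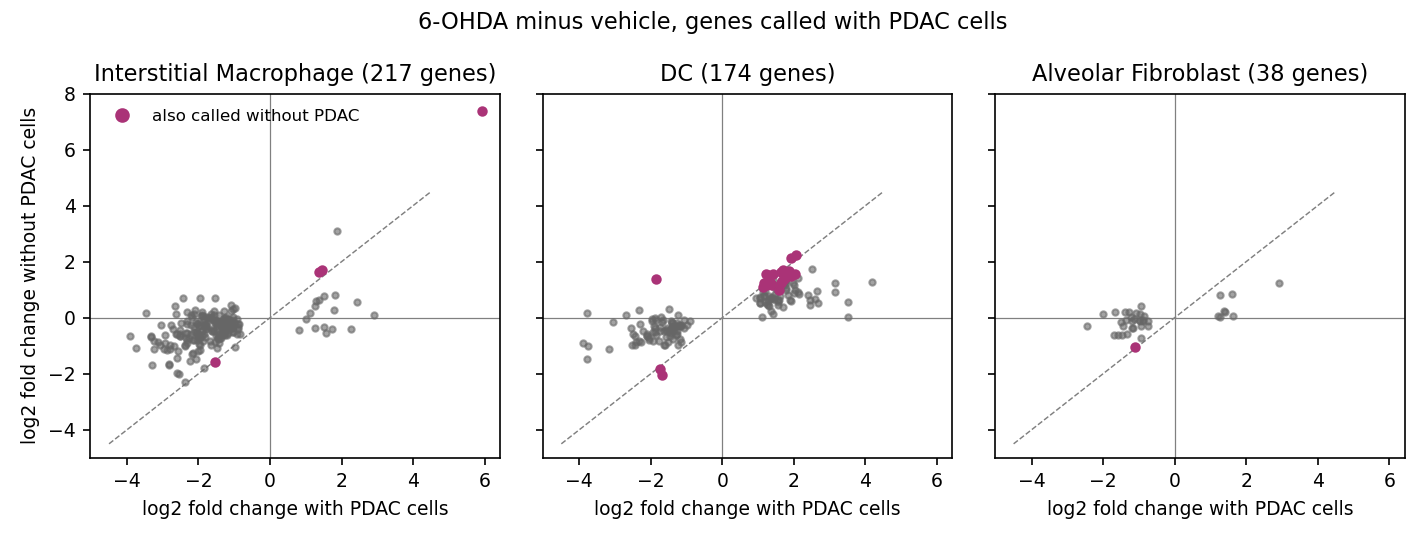
Log2 fold change of 6-OHDA against vehicle with PDAC cells (horizontal) and without (vertical) for the 217, 174 and 38 called genes of the 3 types; the dashed line marks equal values and purple points were called in both. Most points lie on the same side of 0 on both axes.

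Cancer cells were present in vehicle 1 (56), 6-OHDA 1 (75) and 6-OHDA 2 (71), and vehicle 2 held 0. They made up 0.822% and 0% of cells in vehicle 1 and vehicle 2, and 1.90% and 2.03% in 6-OHDA 1 and 6-OHDA 2. The share did not pass edgeR's test (log2 fold change 2.31, adjusted p = 0.309), and the log2 fold change was 1.25 without vehicle 2. For gene levels there is no vehicle 2 value. The comparison therefore has 1 vehicle sample, which is assumed to vary like the 6-OHDA and BIBO3304 duplicates (33 and 73 cells), and 148 of 11709 genes were called (1.26%), 85 higher and 63 lower. With 1 vehicle sample, a difference of that sample cannot be told apart from the treatment. Without 6-OHDA 1 the calls numbered 72 and without 6-OHDA 2 they numbered 301. The 10 tested cancer cell markers gave 0 calls and summed to 1067 CPM in vehicle 1 and 919 and 926 CPM in the 6-OHDA samples. The heat shock gene Hspa1b was at 1.46 CPM in vehicle 1 and at 51.0 and 74.3 CPM in the 6-OHDA samples, and at 66.6 and 41.6 CPM in the BIBO3304 samples. Eya1, a developmental transcription cofactor, was at 103 CPM against 25.5 and 27.9 CPM, and at 31.4 and 33.6 CPM with BIBO3304. Pip5k1b stood at 260.0 CPM against 80.6 and 113 CPM. Ntn1, the axon guidance ligand netrin 1, stood at 48.3 against 10.4 and 9.45 CPM. Ppargc1a, a coactivator of mitochondrial genes, stood at 42.0 against 5.22 and 9.02 CPM. MHC class II genes were called higher in 6 of 10 tested, summing to 461 CPM in vehicle 1 and 1338 and 1012 CPM in the 6-OHDA samples, and interstitial macrophage markers summed to 98.5 CPM against 232 and 178 CPM, with 2 of 12 called; whether RNA of macrophages enters the cancer cell values was not tested.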

How the data were processed

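Live sorted lung cells were barcoded with the Evercode Whole Transcriptome v3 kit, per the labels' protocols. The authors deposited raw transcript counts of 38003 genes in 80449 cells, with a table of the sample, condition, seeding mark, cell subtype and percent of mitochondrial transcripts of each cell. Per the submitters' processing notes, Seurat 5.3.0 and the build mm39 were used. No source read for this work names an aligner, counting settings, cell filters or any removal of doublets. The deposited percent of mitochondrial transcripts was at most 9.99, and the fewest genes per cell were 301. No doublet caller was run; leaving out the 5% of cells with the most transcripts was an alternative.

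Counts were summed per sample and deposited cell subtype where at least 20 cells were present, in 15 samples. 17 types with 2 such samples in both seeded groups were tested and 5 were not. In R 4.3.3, edgeR 4.0.16 (with limma 3.58.1) was fitted with TMM scaling, filterByExpr, a robust quasi-likelihood fit over all 6 groups and Benjamini-Hochberg adjustment within each type at 0.05. DESeq2 1.42.0 was an alternative. Cell shares were tested the same way on cell numbers; the exact permutation test of 2 against 2 samples cannot go below p = 0.333. Log2 fold changes are the fitted ones, with SE from the fit. Shares of cells with a transcript were computed after drawing 1000 transcripts per cell, leaving out shallower cells, a step chosen after the gene results were seen; the intervals are exact binomial and cover counting error only. Replicates of a group differed by more than sampling noise (chi-square per degree of freedom 3.33 to 124).

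The genes named with full values were the 4 largest rises and falls with a mean of at least 20 CPM in the 4 types with the most calls, the top gene of other types, up to 4 called members of each list, and the 5 smallest p in cancer cells. Predicted, ribosomal, mitochondrial and immune receptor genes were left out. Other genes, among them C1qa, Irf8, Prkca, Cd209c, F13a1, Cd163, Gli1, Hmgcs1 and the heat shock genes of fibroblasts, were named after their values were seen. The comparison, the gene lists and the named types were chosen with earlier results of these data known.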

Additional observations from a re-analysis of the deposited data

Results flagged for a closer look

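The change with 6-OHDA differed between lungs with and without PDAC cells in 9 gene and cell type pairs by the test of the difference itself (edgeR, adjusted within each type). In all 9 the log2 fold change with PDAC cells was lower than the one without.

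In interstitial macrophages Blnk, a B-cell linker also found in macrophages, stood at 152 and 190 CPM with vehicle and 28.2 and 23.2 CPM with 6-OHDA in seeded lungs, and at 176, 127 and 213 against 171, 102 and 122 CPM in lungs without PDAC cells. The difference of the log2 fold changes was -2.31 (adjusted p = 0.0218). Nav2 gave a difference of -2.32 (adjusted p = 0.0218), Ctnnd2 one of -2.79 (adjusted p = 0.0218), Casp4 one of -1.77 (adjusted p = 0.0218) and Mctp1 one of -1.71 (adjusted p = 0.0286). Casp4, the inflammatory caspase 11, was at 158 and 265 against 62.5 and 54.5 CPM with PDAC cells and at 324, 336 and 322 against 347, 289 and 303 CPM without.

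In dendritic cells Il1rap, the shared subunit of interleukin 1 family receptors, was at 125 and 85.6 against 30.4 and 27.8 CPM with PDAC cells and at 43.6, 49.9 and 57.9 against 129.8, 126 and 146 CPM without, so it fell in the seeded lungs and rose in the others (difference -3.26, adjusted p = 0.00364). In alveolar fibroblasts Colq differed by -1.86 (adjusted p = 0.0146). In adventitial fibroblasts Slc6a2 was at 5.10, 6.56 and 11.7 against 10.6, 12.1 and 6.22 CPM without PDAC cells, and the fitted difference of -8.17 (adjusted p = 0.0209) rests on 2 samples at 0 and depends on the prior count. In gCap endothelium the transcript 9530026P05Rik differed by -1.70 (adjusted p = 0.0424), with 1039 and 1525 against 335 and 443 CPM in the seeded lungs.

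Leaving out 6-OHDA 2 with PDAC cells left 0 of these differences below the threshold, leaving out vehicle 2 left 8 calls, and leaving out vehicle 1 gave 79.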

How the results depend on the processing

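The total of 445 calls was 943 with no gene filter and 199 adjusted over all types together. Interstitial macrophage calls, 217, were 120 with the 2 groups fitted alone and 79 adjusted over all types. Dendritic cell calls, 174, were 322 with no gene filter and 55 adjusted over all types, and with a replicate block they were 282. Alveolar fibroblast calls, 38, were 160 with no gene filter, 23 with the 2 groups alone (12 of them among the 38) and 82 with DESeq2. The 9 differences between lungs with and without PDAC cells were 124 with no gene filter and 14 with the replicate block. Leaving out 1 sample at a time gave 44 to 720 calls in all, 38 to 457 in interstitial macrophages, 1 to 202 in dendritic cells, 0 to 51 in alveolar fibroblasts, 0 to 79 differences, 2 to 3 cell shares and 72 to 301 genes in cancer cells; with 1 sample left in a group, that sample is assumed to vary like the others. The cause was not tested.

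Samples share only a number: same-numbered samples had correlations of -0.34 to 0.01. The crossed pairing, chosen after seeing the data, gave 589 calls in all and 17 differences. Of the named results, 31 kept their side of the threshold without vehicle 2 and 33 lost it, 12 kept it and 52 lost it without 6-OHDA 2, and 0 changed direction under any alternative. With DESeq2 54 kept it and 4 lost it. With the 2 groups fitted alone 38 kept it and 26 lost it, and adjusted over all types 28 kept it and 33 lost it. The 6-OHDA samples held 14746383 and 13694977 transcripts.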
